A study of Mus musculus with 2 samples.

Results

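The hormone-sensing luminal regulators are 8 genes chosen by symbol: the receptor genes Esr1, Pgr and Prlr, the transcription factor genes Foxa1, Tfap2c and Tbx3, and the transcriptional cofactor genes Cited1 and Greb1. All 8 of them were found among the 17333 genes listed in at least 1 library. They were measured in 1 library of Procr-positive and 1 library of Procr-negative cells, sorted without culture from the mammary glands of adult virgin mice aged 8 weeks. By the labels, both samples are mammary vascular endothelial cells. Their protocols give the same gate for both libraries, which kept lineage-negative cells carrying CD105, CD31 and Sca1. The samples were divided by surface Procr, a receptor for protein C that gave the sort its name. The strain and the number of pooled animals are not stated, and no treatment or engineered allele is named. With 1 library per group there is no replicate check and no test, so every interval below covers counting error only and leaves out variation between animals, sorts and library preparations.

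In the mammary gland, oestrogen receptor, progesterone receptor and prolactin receptor mark a subset of luminal epithelial cells that sense circulating hormones and pass the signal to their neighbours by secreted factors. The steroid receptors are nuclear receptors that bind DNA when loaded with hormone, and the prolactin receptor is a surface cytokine receptor that acts through the kinase JAK2 and the factor STAT5. FOXA1 opens chromatin for the oestrogen receptor, and GATA3 and AP-2 factors work with it in luminal cells. These genes are not known as markers of blood vessels, although oestrogen receptor and TBX3 are also found in stromal cells.

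Depth was similar, at 9.22 M uniquely mapped reads over 16247 genes in the Procr-positive sample and 9.57 M over 16582 in the Procr-negative sample. The sorting gene Procr differed 8.96-fold in favour of the Procr-positive sample (95% counting interval 8.57 to 9.38). The genes of the shared gate differed as well. Pecam1 (CD31) was 13.5-fold higher in the Procr-positive sample (12.9 to 14.2) and Eng (CD105) 10.3-fold higher (9.72 to 10.9). Ly6a (Sca1) went the other way, 2.40-fold lower in the Procr-positive sample (2.27 to 2.53). The endothelial marker genes were lower in the Procr-negative sample, although its label also names vascular endothelial cells. None of them was at 0 reads in either library. Of 19 pan-endothelial genes, 19 passed 2-fold in favour of the Procr-positive sample, where they summed to 3829 RPKM (reads per kb of gene and per M library reads), against 395 RPKM in the sample labelled Procr-negative. All 15 pan-luminal epithelial genes, such as the keratin genes Krt8 and Krt18, were at least 2-fold lower in the Procr-positive sample. They summed to 914 RPKM there, against 20049.5 RPKM in the sample labelled Procr-negative, and none of them was at 0 reads in either library. The part of these epithelial transcripts in the differences below was not tested, and in bulk RNA fewer cells of a type and less RNA per cell cannot be told apart.

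Most of the hormone-sensing regulators were far lower in the Procr-positive sample, with Tbx3 as the exception. By reads, 7 of the 8 genes had a counting interval lying wholly beyond 2-fold lower in the Procr-positive sample, a position held by 20.1% of the 12509 genes that reached 1 RPKM in either library. One of the 7, Greb1, is not among those 12509 genes, so 6 of the 7 regulators among them held it. On the log2(RPKM + 1) scale, which shrinks the differences of low genes, 6 were at least 2-fold lower and 0 higher, beside 23.7% of those 12509 genes lower and 13.1% higher. Greb1 did not reach 1 RPKM in either library, and its difference on that scale was −0.62. The median difference over all 8 genes was −3.83, beside −0.38 over the 12509 genes. Of all genes called, 35.7% were higher in the Procr-positive sample as deposited, 59.6% after centring on the median of −0.38 and 50.9% with upper-quartile scaling.

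**Figure D1:**
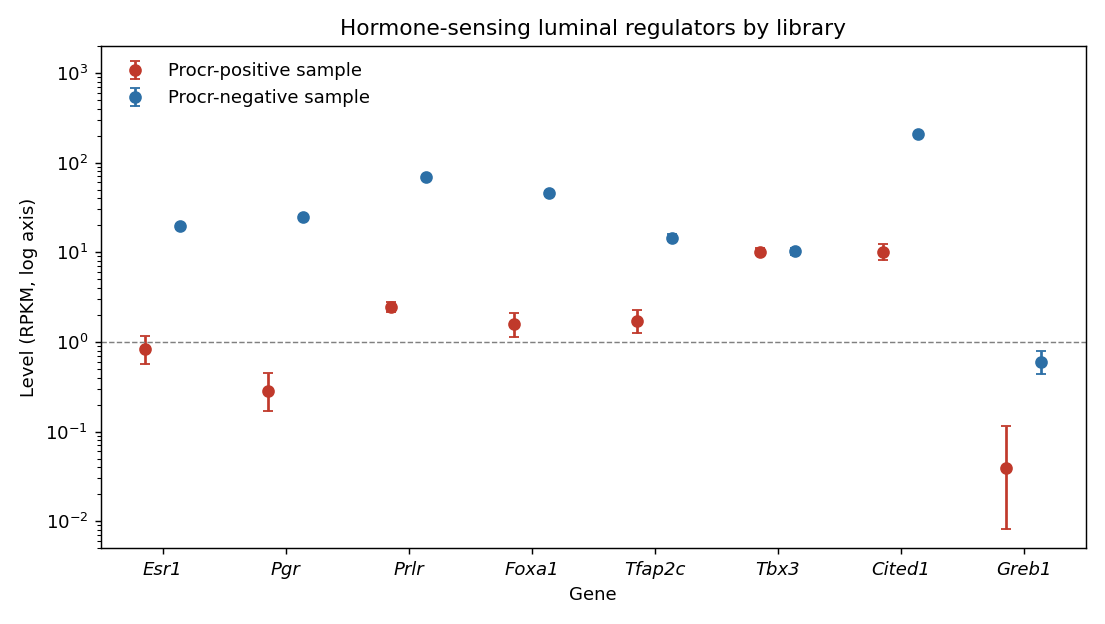
Level of each regulator in RPKM on a log axis, with exact Poisson 95% counting intervals, in the Procr-positive sample (red, left) and the Procr-negative sample (blue, right). The dashed line marks 1 RPKM. Tbx3 is at 10.1 RPKM in the Procr-positive sample and 10.3 RPKM in the other, while the other 7 genes are lower in the Procr-positive sample.

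Esr1 encodes oestrogen receptor alpha and lies on chromosome 10, 4611989 to 5005633 in GRCm38. It had 33 reads in the Procr-positive sample, or 0.829 RPKM, and 805 reads in the Procr-negative sample, or 19.5 RPKM. It was thus 23.5-fold lower in the Procr-positive sample (16.6 to 34.4). Its place in the 2 libraries also differed, since it exceeded 29.1% of the listed genes in the Procr-positive sample and 77.6% of those in the Procr-negative sample.

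Pgr encodes the progesterone receptor and is itself a classical target of the oestrogen receptor (chromosome 9, 8898900 to 8968611). It had 18 reads or 0.283 RPKM in the Procr-positive sample, and 1616 reads or 24.5 RPKM in the Procr-negative sample. It was 86.5-fold lower in the Procr-positive sample (54.6 to 146), the widest ratio of the 8 genes, and its interval overlapped that of none of the others except Greb1, which rested on few reads. Within each library, the level of Pgr per unit of Esr1 was 0.342 in the Procr-positive sample (0.181 to 0.625) and 1.26 in the Procr-negative sample (1.16 to 1.37). The steroid receptor genes therefore stood in opposite order in the libraries, with Pgr below Esr1 in the Procr-positive and above it in the Procr-negative sample.

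Prlr encodes the prolactin receptor (chromosome 15, 10177238 to 10349190). It had 235 reads in the Procr-positive sample, or 2.47 RPKM, and 6742 reads in the Procr-negative sample, or 68.2 RPKM. It was 27.7-fold lower in the Procr-positive sample (24.3 to 31.6) and was the most abundant of the receptor genes in both libraries. The level of Prlr per unit of Esr1 was 2.98 in the Procr-positive sample (2.06 to 4.43) and 3.50 in the Procr-negative sample (3.25 to 3.77), and these intervals overlapped.

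Among the transcription factor genes, Foxa1 and Tfap2c were low in the Procr-positive sample at nearly the same level, and well apart in the other. Foxa1, the gene of the forkhead pioneer factor (chromosome 12, 57540628 to 57548029), had 46 reads or 1.56 RPKM in the Procr-positive sample, and 1379 reads or 45.2 RPKM in the Procr-negative sample. It was 28.9-fold lower in the Procr-positive sample (21.5 to 39.7). Tfap2c, which encodes AP-2 gamma (chromosome 2, 172545678 to 172558622), had 45 reads or 1.71 RPKM in the Procr-positive sample, and 398 reads or 14.6 RPKM in the Procr-negative sample. It was 8.53-fold lower in the Procr-positive sample (6.25 to 11.9), a smaller ratio than that of Foxa1 with intervals that do not overlap. The level of Tfap2c per unit of Foxa1 was 1.09 (0.708 to 1.69) in the Procr-positive sample and 0.323 (0.288 to 0.361) in the Procr-negative sample.

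Tbx3 encodes a T-box repressor needed for the mammary gland to form (chromosome 5, 119670534 to 119684724). It had 473 reads or 10.1 RPKM in the Procr-positive sample, and 499 reads or 10.3 RPKM in the Procr-negative sample. The read ratio of Procr-positive over Procr-negative was 0.983 (0.865 to 1.12), so a difference was not detectable at this depth, and the whole interval lay within 2-fold. On the log2(RPKM + 1) scale the difference was −0.02, and 0.36 once log ratios were centred on the median of all genes. Exons of Tbx3 overlap those of the antisense gene Tbx3os1, which is not listed in either library, and reads of the pair cannot be told apart if strand was not used. In the Procr-positive sample Tbx3 had the highest level of the 8 genes together with Cited1 and made up 37.3% of their summed RPKM. In the Procr-negative sample it was next to last, and its share was 2.63%.

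Cited1 encodes a coactivator without a DNA-binding domain of its own that has been linked to oestrogen receptor activity (chromosome X, 102247378 to 102252181). It had 103 reads in the Procr-positive sample, or 10.1 RPKM, and 2198 reads in the Procr-negative sample, or 208 RPKM. It was 20.6-fold lower in the Procr-positive sample (16.9 to 25.3), and in the Procr-negative sample it exceeded 98.2% of listed genes. It supplied 37.3% of the summed RPKM of the 8 genes in the Procr-positive sample and 53.2% in the Procr-negative sample.

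Greb1, an early oestrogen-induced gene of human breast cancer cells whose product is a receptor cofactor (chromosome 12, 16670615 to 16801394), was the rarest of the set. It had 3 reads or 0.0393 RPKM in the Procr-positive sample, and 47 reads or 0.594 RPKM in the Procr-negative sample. The ratio was 15.1-fold lower in the Procr-positive sample with a wide interval (4.86 to 75.9). In the Procr-negative sample, where Esr1 was well measured, the level of Greb1 per unit of Esr1 was 0.0305 (0.0222 to 0.0409).

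In order of level, the genes of the Procr-positive sample were Tbx3, Cited1, Prlr, Tfap2c, Foxa1, Esr1, Pgr and Greb1. There the counting intervals of Tbx3 and Cited1 overlapped, as did those of Prlr and Tfap2c, of Tfap2c and Foxa1, and of Foxa1 and Esr1. The order in the Procr-negative sample was Cited1, Prlr, Foxa1, Pgr, Esr1, Tfap2c, Tbx3 and Greb1, and no neighbouring intervals overlapped.

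Set beside the pan-luminal epithelial genes, Esr1, Prlr, Foxa1 and Cited1 differed by about as much as those did. The read ratios of the 15 pan-luminal genes ran between 3.75-fold lower (Spint2) and 37.0-fold lower (Wfdc2) in the Procr-positive sample, with a median of 22.7-fold. Of the 8 regulators, 6 fell inside that range, Pgr lay beyond its upper end and Tbx3 short of its lower end. Spint2 alone set that lower end. Without it, a step chosen after seeing the data, the other 14 genes began at 17.1-fold lower (Muc1), and 4 regulators lay inside, with Tfap2c and Greb1 also short of the range. As a share of the summed pan-luminal RPKM, Esr1 was at 0.0907% in the Procr-positive sample and 0.0972% in the Procr-negative sample, and Cited1 at 1.10% in the Procr-positive sample and 1.04% in the Procr-negative one. Pgr was at 0.0310% of that sum in the Procr-positive sample against 0.122% in the Procr-negative sample. Tfap2c went the other way, at 0.187% in the Procr-positive sample against 0.0727% in the Procr-negative sample, and Tbx3 reached 1.11% in the Procr-positive sample against 0.0512% in the Procr-negative one. No test between conditions exists for these shares, and whether the epithelial transcripts in both libraries come from the same kind of cell was not tested.

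**Figure D2:**
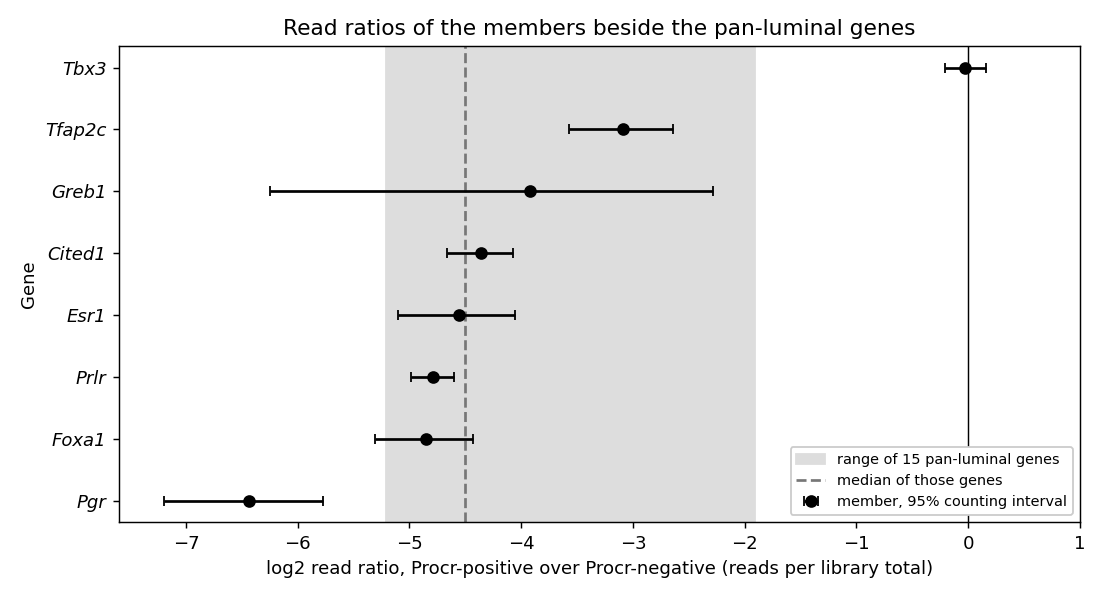
Read ratio of each regulator on a log2 axis, Procr-positive over Procr-negative, each scaled to its library total, with exact 95% counting intervals. The grey band spans the 15 pan-luminal genes, between 3.75-fold lower (Spint2 alone) and 37.0-fold lower, and the dashed line is their median. Pgr lies left of the band and Tbx3 at about 0.

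The position of the genes among all genes shows the same division. On the log2(RPKM + 1) scale Prlr was at −4.32, Pgr at −4.31, Cited1 at −4.23 and Foxa1 at −4.17, and fewer than 100 genes had a lower value than each of these, namely 53, 56, 68 and 73 genes of 12509. Esr1 was at −3.49 with 196 genes below it, and Tfap2c at −2.52 with 481 below it. Tbx3 had 64.6% of the genes below it.

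**Figure D3:**
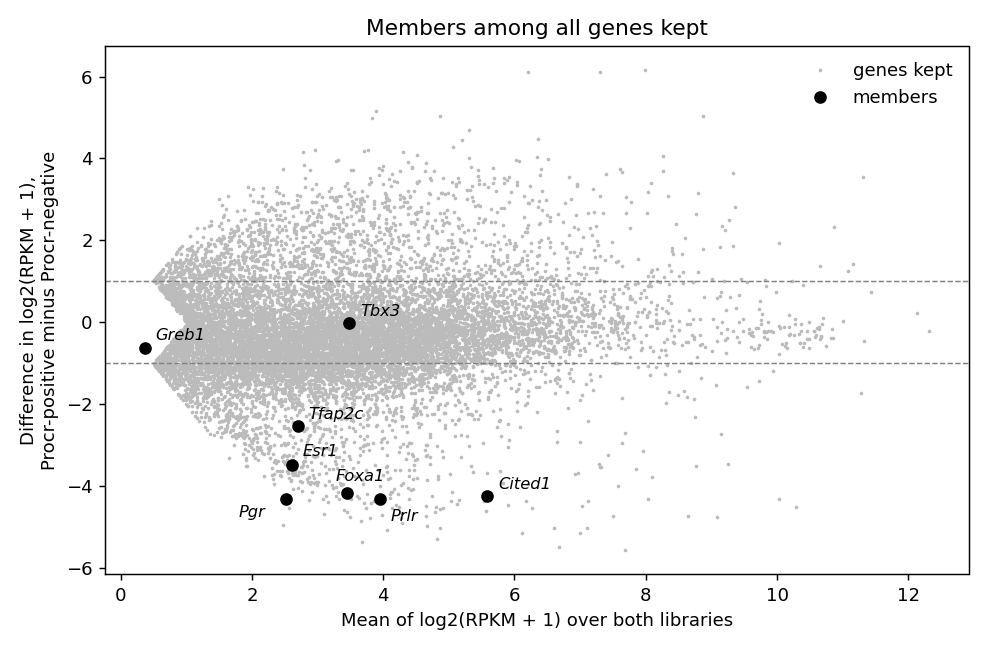
Difference in log2(RPKM + 1), Procr-positive minus Procr-negative, against the mean of log2(RPKM + 1) over both libraries, for the 12509 genes that reached 1 RPKM in either library (grey) and the 8 regulators (black). Dashed lines mark 2-fold. Esr1, Pgr, Prlr, Foxa1 and Cited1 lie near the lower edge of the cloud and Tbx3 inside it.

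The deposited coverage, the share of a gene's length reached by reads, followed the read numbers for most of the set. Esr1 was covered over 29.5% of its length in the Procr-positive sample and 99.8% in the Procr-negative sample, and Pgr over 11.3% in the Procr-positive sample and 98.7% in the Procr-negative one. For Pgr, the median of 36 genes with length and reads within 1.2-fold was 11.2% in the Procr-positive sample, and the median of 82 such genes was 97.5% in the Procr-negative sample. For Esr1, the like genes had a median of 29.8% over 117 genes in the Procr-positive sample and 96.55% over 219 in the Procr-negative sample. Reads of Esr1 and Pgr were thus spread along the gene in the Procr-negative sample and about as scattered as those of like genes in the other. Prlr was covered over 60.1% in the Procr-positive sample, at about the lower quartile of 22 like genes (median 63.2%). In the Procr-negative sample Prlr was at 98.5%, with only 4 like genes. Cited1 stood apart. Its coverage was 67.0% in the Procr-positive sample and 72.4% in the Procr-negative sample, which had many times more reads. In genes alike in length and reads the median was 87.5% over 76 genes in the Procr-positive sample and 96.8% over 14 genes in the Procr-negative sample. Of those 76 genes 11.8% were covered less than Cited1, and of those 14 genes 0 were. Tbx3 was covered over 93.8% of its length in the Procr-positive sample and 88.2% in the Procr-negative sample, while like genes had a median of 93.2% in the Procr-positive sample and 93.4% in the Procr-negative one. In the Procr-negative sample Tbx3 was just below the lower quartile of its 219 like genes (89.1%), and 22.8% of them were covered less. Whether the uncovered part of Cited1 belongs to transcripts not made in these cells was not tested.

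**Figure D4:**
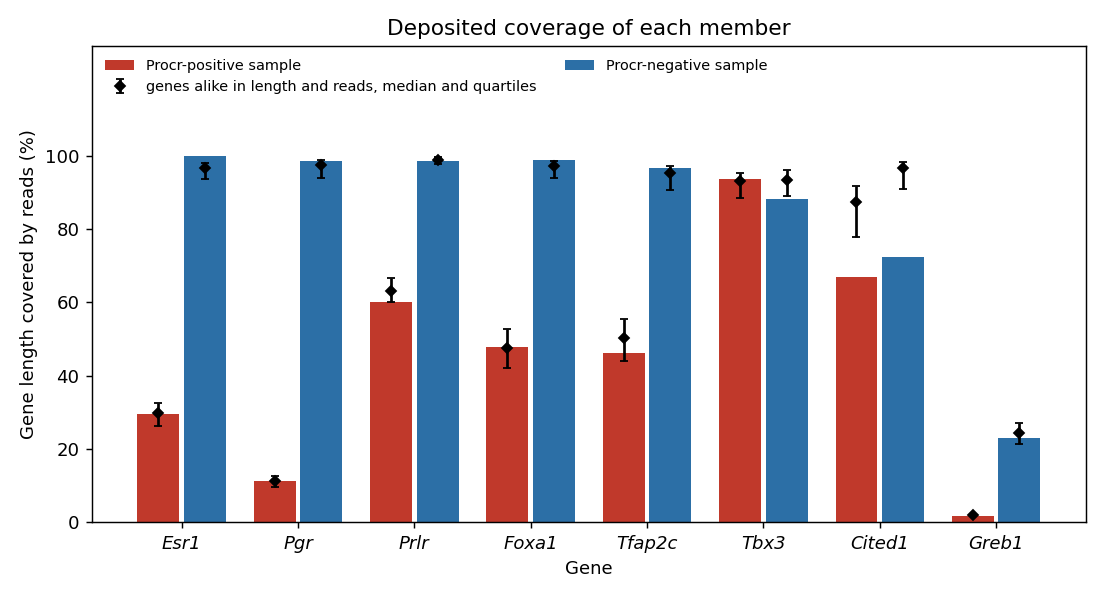
Share of each gene's listed length covered by reads, in percent, in the Procr-positive sample (red, left bars) and the Procr-negative sample (blue, right bars). Diamonds with bars give the median and quartiles over genes within 1.2-fold in both length and reads. Cited1 is at 67.0% in the Procr-positive and 72.4% in the Procr-negative one, below the lower quartile of like genes in both libraries.

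The DNA just upstream of the annotated starts is shown for the 3 receptor genes and for Foxa1, the factor that opens chromatin for one of them. The windows of Cited1, which was also over 20-fold lower, and of Greb1 are not printed, and the choice was made with the motif matches known. Each sequence holds the 250 bases before the first start listed in the RefSeq promoter table for GRCm38.p6, which for Pgr and Foxa1 lies inside the annotated gene, written along the gene's own strand, with capitals on every match to the motifs described after them.
Esr1 (chr10:4611739-4611988, plus strand): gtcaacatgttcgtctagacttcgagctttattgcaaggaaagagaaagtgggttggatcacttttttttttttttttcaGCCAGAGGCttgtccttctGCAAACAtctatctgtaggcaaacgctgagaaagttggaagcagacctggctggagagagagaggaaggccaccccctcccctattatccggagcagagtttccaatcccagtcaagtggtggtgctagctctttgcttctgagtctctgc
Pgr (chr9:8899583-8899832, plus strand): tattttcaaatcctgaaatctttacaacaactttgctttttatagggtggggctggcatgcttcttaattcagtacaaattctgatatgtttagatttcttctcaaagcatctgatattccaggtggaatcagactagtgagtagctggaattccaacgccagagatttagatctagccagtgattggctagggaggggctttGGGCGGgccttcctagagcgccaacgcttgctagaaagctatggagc
Prlr (chr15:10176988-10177237, plus strand): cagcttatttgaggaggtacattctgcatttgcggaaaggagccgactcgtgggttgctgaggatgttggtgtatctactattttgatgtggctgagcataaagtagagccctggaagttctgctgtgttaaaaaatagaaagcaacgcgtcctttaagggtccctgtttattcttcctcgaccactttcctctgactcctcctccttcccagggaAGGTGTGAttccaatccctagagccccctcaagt
Foxa1 (chr12:57546112-57546361, minus strand): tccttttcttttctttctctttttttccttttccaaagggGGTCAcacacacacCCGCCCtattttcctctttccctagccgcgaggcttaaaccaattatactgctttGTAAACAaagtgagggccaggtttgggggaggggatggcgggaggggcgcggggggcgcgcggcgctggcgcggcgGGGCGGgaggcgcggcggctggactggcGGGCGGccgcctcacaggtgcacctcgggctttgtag

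The motifs were searched on both strands in 12 windows of 6 regulator genes and in all 32851 windows of the table, and Tbx3 and Tfap2c had no window. They were the full oestrogen response element GGTCANNNTGACC, its single arm GGTCA, the progesterone response element GNACANNNTGTNC, the forkhead motifs TGTTTAC and TGTTTGC, the AP-2 motif GCCNNNGGC, the STAT5 motif TTCNNNGAA, the T-box motif AGGTGTGA, the GATA motif AGATAA and the GC box GGGCGG. A full oestrogen element contains its arm on both strands. In the Esr1 window the capitals are an AP-2 match and a forkhead match of the second form, and in the Foxa1 window an oestrogen element arm, a forkhead match of the first form and 3 GC boxes. The Prlr window held a T-box match and the Pgr window a GC box. The full oestrogen element and the progesterone element were in none of the 12 windows, and in 0.0639% and 0.387% of all windows. The single arm GGTCA was in 5 of the 12 windows and in 35.2% of all windows. The first forkhead form was in 2 of the 12 windows and in 3.17% of all windows, and the second in 1 and in 4.30%. The AP-2 motif was in 2 of the 12 and in 13.7% of all windows, and the STAT5 motif in 2 and in 7.02%. The T-box motif was in 1 of the 12 and in 1.12% of all windows. The GATA motif was in 0 of the 12 and in 9.99% of all windows, and the GC box in 3 and in 32.7%. Some matches were in windows not printed. The STAT5 motif was found in later start windows of Esr1 and Prlr, and the first forkhead form in that Prlr window. Windows of Cited1 held the arm GGTCA, an AP-2 match and a GC box, and those of Greb1 held the arm.

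Other genes of the hormone-sensing luminal cell differed in the same direction as the receptors. Of 10 hormone-sensing markers that are not among the 8 regulators, 9 reached 1 RPKM. Of those 9, 7 were at least 2-fold lower in the Procr-positive sample and 0 higher, beside 23.7% lower and 13.1% higher over all genes. Their median was −3.46 on the log2(RPKM + 1) scale beside −0.38 over all genes. Areg, the epidermal growth factor family ligand made downstream of the oestrogen receptor, was 48.8-fold lower in the Procr-positive sample (43.7 to 54.7), at 28.9 RPKM in Procr-positive against 1409 RPKM in Procr-negative cells. The Wnt ligand gene Wnt5a was 54.8-fold lower (31.8 to 103), at 0.324 RPKM in Procr-positive against 17.7 RPKM in Procr-negative cells, and the homeobox gene Msx2 33.2-fold lower (18.4 to 67.1). Prom1, a surface marker of mouse hormone-sensing cells, was at 14.2 RPKM in the Procr-positive sample and 22.3 RPKM in the Procr-negative sample, a difference of −0.61. Batf had 7.08 RPKM in the Procr-positive sample and 3.93 RPKM in the Procr-negative sample.

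The secreted mediators of progesterone differed among themselves. Wnt4, a progesterone-induced ligand, was 24.3-fold lower in the Procr-positive sample (16.9 to 36.3), at 0.851 RPKM in Procr-positive against 20.7 RPKM in Procr-negative cells. Calca, the calcitonin gene, was 20.4-fold lower there (9.12 to 56.6), with 6 reads in the Procr-positive sample against 127 in the Procr-negative sample. Tnfsf11, which encodes the paracrine mediator RANKL, had 4 reads in the Procr-positive sample and 1 read in the Procr-negative sample, the one in which Pgr had 1616 reads. Of 7 genes in the progesterone-responsive list 6 reached 1 RPKM. Wnt4 and Calca were lower and Id4 was higher (14.8 RPKM in Procr-positive against 2.65 RPKM in Procr-negative cells), beside 23.7% lower and 13.1% higher over all genes. The list median was −0.09. That median, close to 0, was positive without the filter (0.10), centred on the median of all genes (0.29), with upper-quartile scaling (0.16) and centred on the pan-luminal median (4.28).

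The oestrogen-responsive list, drawn largely from human breast cancer cells, was divided. Of 18 genes, 17 were listed and 16 reached 1 RPKM. Areg and Stc2 were at least 2-fold lower in the Procr-positive sample, and Ret, Igfbp4, Cxcl12 and Myc were at least 2-fold higher, beside 23.7% lower and 13.1% higher over all genes. The list median was 0.13, and it was 0.54 from 5 RPKM, 0.51 centred on the median of all genes, 0.39 with upper-quartile scaling and 0.022 without the filter. Stc2, a secreted glycoprotein gene, was at 6.90 RPKM in Procr-positive against 85.8 RPKM in Procr-negative cells. Ret, a receptor tyrosine kinase gene, was at 10.5 RPKM from 712 reads in the Procr-positive sample and 0.342 RPKM from 24 reads in the Procr-negative sample. The cell cycle gene Ccnd1 was at 24.3 RPKM in Procr-positive against 29.9 RPKM in Procr-negative cells and the stress factor gene Xbp1 at 91.3 RPKM in Procr-positive against 89.9 RPKM in Procr-negative cells, both within 2-fold.

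Most luminal transcription factors outside the set were lower in the Procr-positive sample, as Foxa1 was. All 11 reached 1 RPKM, 8 were at least 2-fold lower in the Procr-positive sample and 1, Cebpb, was higher (median −2.68). Over all genes, 23.7% were lower and 13.1% higher. Ehf, an epithelial ETS factor gene, was 29.8-fold lower in the Procr-positive sample (22.8 to 39.8), Gata3, a regulator of the luminal lineage, 17.1-fold lower (12.7 to 23.6) and Elf3 14.3-fold lower (11.2 to 18.4). Elf5, which drives the secretory luminal lineage and not the hormone-sensing one, was 11.3-fold lower as well (6.40 to 21.7).

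Among the closest relatives of the regulators, calls fell on both sides, in shares not far from those of all genes. Of 19 relatives, 17 were listed and 12 reached 1 RPKM. Tfap2a, Tfap2b, Cited4 and Esrrg were at least 2-fold lower in the Procr-positive sample, and the T-box genes Tbx2 and Tbx5 at least 2-fold higher, beside 23.7% lower and 13.1% higher over all genes. The list median was −0.34, and 0.037 once centred on the median of all genes. Tbx2, the nearest relative of Tbx3, was at 11.0 RPKM in the Procr-positive sample and 1.79 RPKM in the Procr-negative sample. Tbx5 was at 3.91 RPKM from 142 reads in the Procr-positive sample and 0.159 RPKM from 6 reads in the Procr-negative sample. Tfap2a was 19.4-fold lower in the Procr-positive sample (13.0 to 30.2), Tfap2b 25.9-fold lower (14.7 to 50.7) and Cited4 9.83-fold lower (5.78 to 18.0), whereas Cited2 was at 34.6 RPKM in Procr-positive against 31.5 RPKM in Procr-negative cells. Of the other steroid receptors, Esr2 had 14 reads in the Procr-positive sample and 5 in the Procr-negative sample. The glucocorticoid receptor gene Nr3c1 was at 19.6 RPKM in Procr-positive against 13.3 RPKM in Procr-negative cells and the mineralocorticoid receptor gene Nr3c2 at 4.17 RPKM in Procr-positive against 4.02 RPKM in Procr-negative cells.

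The genes of the machinery that the receptors use had reads in both libraries. The calls in these lists stand beside 23.7% lower and 13.1% higher over all genes. Of 14 coregulator and chaperone genes, all reached 1 RPKM, 2 were at least 2-fold lower in the Procr-positive sample, Carm1 among them, and 0 higher. The list median was −0.53, and it was −0.15 centred on the median of all genes and −0.22 with upper-quartile scaling. The methyltransferase gene Carm1 was at 5.27 RPKM in Procr-positive against 16.4 RPKM in Procr-negative cells and the receptor chaperone gene Fkbp4 at 18.2 RPKM in Procr-positive against 36.9 RPKM in Procr-negative cells, just within 2-fold on the log2(RPKM + 1) scale. Of 12 prolactin signalling genes, Jak2, Socs2, Socs3 and Stat3 passed 2-fold in favour of the Procr-positive sample and Src was lower. The list median was 0.64, and 1.02 centred on the median of all genes. Jak2, the kinase bound to the prolactin receptor and to many cytokine receptors, was at 315 RPKM in the Procr-positive sample and 63.5 RPKM in the Procr-negative sample, the reverse of Prlr. The feedback inhibitor gene Socs2 was at 58.6 RPKM in Procr-positive against 18.9 RPKM in Procr-negative cells, and the kinase gene Src at 5.02 RPKM in Procr-positive against 44.8 RPKM in Procr-negative cells. Stat5a was at 38.6 RPKM in Procr-positive against 26.7 RPKM in Procr-negative cells and the STAT5 target Cish at 25.7 RPKM in Procr-positive against 25.4 RPKM in Procr-negative cells. Steroid-converting enzymes were few, with 5 of 11 reaching 1 RPKM. Of these the sulfatase gene Sts was higher in the Procr-positive sample (18.3 RPKM in Procr-positive against 3.16 RPKM in Procr-negative cells), Hsd11b1 was lower (0.628 RPKM in Procr-positive against 2.88 RPKM in Procr-negative cells), Hsd17b11 was at 38.3 RPKM in Procr-positive against 19.7 RPKM in Procr-negative cells, and the aromatase gene Cyp19a1 had 1 read in the Procr-positive and 0 in the Procr-negative sample. The median of this list was 0.24, and it was −0.016 without the filter, 0.93 from 5 RPKM, 0.62 centred on the median of all genes and 0.45 with upper-quartile scaling.

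**Figure D5:**
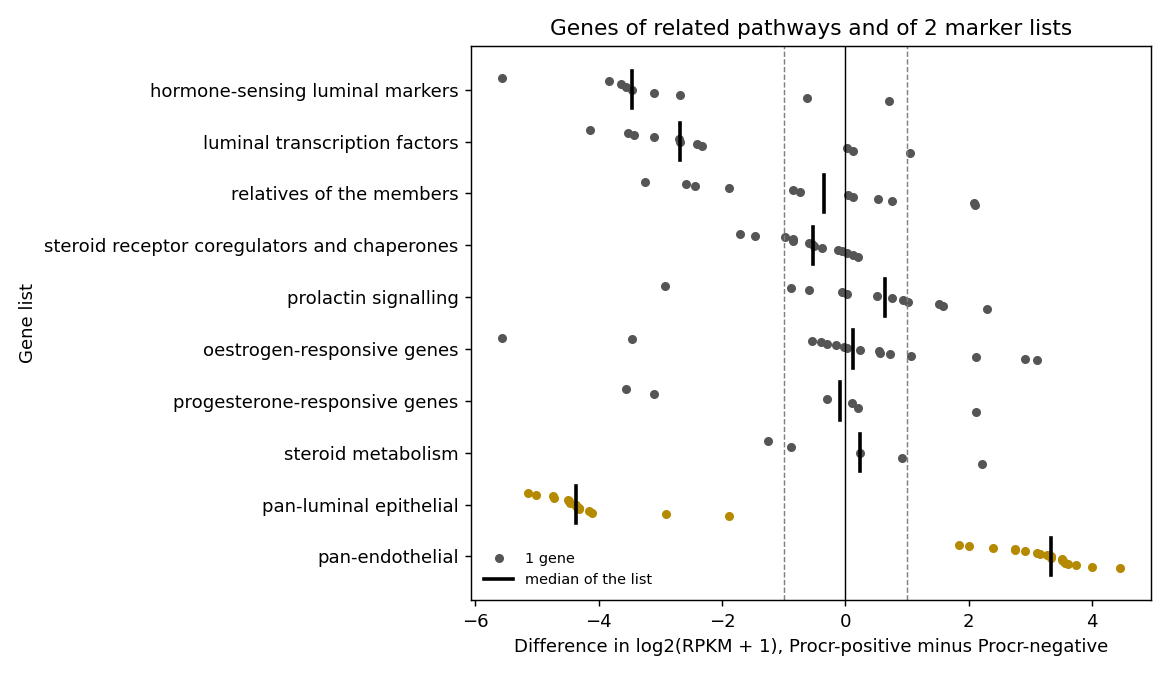
Difference in log2(RPKM + 1), Procr-positive minus Procr-negative, for the genes of 8 related pathway lists (grey) and of 2 marker lists (ochre), each point 1 gene that reached 1 RPKM in either library and each black bar the list median. Dashed lines mark 2-fold. The hormone-sensing markers and luminal factors lie mostly left of 0, with medians of −3.46 and −2.68, and the coregulators near 0.

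The naming rule did not give the following genes, which were picked with their values in view: Prom1, Batf, Tnfsf11, Igfbp4, Cxcl12, Myc, Ccnd1, Xbp1, Cebpb, Elf5, Esrrg, Tbx2, Tbx5, Cited2, Esr2, Nr3c1, Nr3c2, Socs3, Stat3, Stat5a, Cish, Spint2, Wfdc2, Muc1 and Cyp19a1.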

How the data were processed

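Per the labels' protocols, libraries of total RNA were read singly on an Illumina HiSeq 2000, and uniquely mapping reads were placed on mm10. Which aligner, counter and annotation were used, and whether strand was, remain not given in the sources used here. The authors deposited whole-number read counts, with a library total in each header to which they sum. Genes without a read are not listed in a file and were taken as 0 reads there. The RPKM values were deposited by the authors and equal reads divided by the listed length in kb and by the library total in M, within rounding error. Coverage in percent was deposited by the authors, and how it was computed is not stated.

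Values were joined by gene identifier with pandas 2.3.3. The main scale was the log2 difference of RPKM + 1, Procr-positive minus Procr-negative, with genes kept from 1 RPKM in at least 1 library and called at 2-fold. Folds of single genes are ratios of reads scaled to the library total. Poisson and Clopper-Pearson 95% intervals came from scipy 1.17.1. Another 10 settings and a stricter call rule were tried. The functions were tested on simulated data.

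The 8 genes, the 8 pathway lists, the 9 marker lists and the settings were chosen with earlier results of these data known, and the lists overlap. The naming rule took the 8 genes, the 3 genes of each pathway list with the largest absolute difference, the 2 most abundant genes of each marker list, 4 gate genes and the 5 genes nearest to the set. Some of these are not reported here. The promoter windows printed were chosen after the matches to the 10 motifs searched were seen, and the 1.2-fold window for like genes in the coverage comparison was set after the data were seen. Coordinates come from RefSeq for GRCm38.p6, the assembly behind mm10, where 17285 of 17333 identifiers matched. In GENCODE M21, exons of Prlr, Tbx3 and Greb1 overlap those of another annotated gene (Gm21973 on the same strand, Tbx3os1 and Gm48140 on the opposite one). None of those 3 is listed in either library, so reads from them could have been counted for the regulator.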

Additional observations from a re-analysis of the deposited data

How the results depend on the processing

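Each setting changed 1 choice, except TPM and RPM with a prior of 1 read. The TPM setting also kept genes from 1 TPM in place of 1 RPKM. RPM with a prior of 1 read both dropped the length scaling and replaced the pseudocount. The median difference of the 8 regulators, −3.83 as reported, was −4.37 with a pseudocount of 0.1 RPKM and −4.43 as RPM with a prior of 1 read. Centred on the pan-endothelial median it was −7.16. Centred on the pan-luminal median, a view relative to epithelial RNA, it changed sign to 0.54, and the count of regulators at least 2-fold lower was then 0 in place of 6. That centring also turned the sign of Esr1 (0.89), Pgr (0.0571), Prlr (0.0513), Foxa1 (0.20), Tfap2c (1.85) and Cited1 (0.14), and of the hormone-sensing marker (0.91) and luminal factor (1.70) list medians. Pan-luminal centring put the medians of all 8 pathway lists above 0 and pan-endothelial centring put them below 0. The count of lower regulators was 7 in TPM, where Greb1 was added (−1.07). It was also 7 with pan-endothelial centring, where the added gene was Tbx3 (−3.35). Under the other 7 settings and the stricter call rule the count was 6. Over all genes, 2964 were lower and 1643 higher as reported. The lower count was 1644 centred on the median of all genes, 2 centred on the pan-luminal and 12082 on the pan-endothelial median, and the higher count 12291 and 10 under those last settings. No paired analysis was possible because each group has 1 library, and for the same reason no library could be left out. For a gene of 1 kb, 3 reads equal 0.325 RPKM in the Procr-positive sample and 0.314 RPKM in the Procr-negative one, and Greb1 in the Procr-positive sample had no more than those 3 reads.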

Other observations

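Markers of the secretory luminal branch, of basal cells and of other cell types were set beside the regulators. Their calls stand beside 23.7% lower and 13.1% higher over all genes. Of 14 secretory or progenitor luminal genes 13 reached 1 RPKM, 10 were at least 2-fold lower in the Procr-positive sample and 1, Cd14, was higher (median −2.32), with Lcn2 at 128 RPKM in Procr-positive against 1469 RPKM in Procr-negative cells. Wap, a milk protein gene, had 0 reads in the Procr-positive and 4 in the Procr-negative sample. Of 10 basal genes 9 reached 1 RPKM, with Krt17 lower and Myh11, Mylk and Acta2 higher in the Procr-positive sample (median −0.44), and the last 3 are also expressed by vascular smooth muscle. All 9 mural genes were higher in the Procr-positive sample (median 2.89). Of 9 fibroblast genes 7 were lower and Fbn1 was higher there (median −1.68), with summed levels of 203 RPKM in Procr-positive against 733 RPKM in Procr-negative cells. Of 7 adipocyte genes that reached 1 RPKM 4 were higher there (median 1.28), of 5 lymphatic genes 2 were lower (median −0.31), and all 7 such immune genes were higher (median 1.24). Wap, Myh11, Mylk and Fbn1 fell outside the naming rule.

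By level in both libraries, the genes nearest to the median point of the 8 regulators (1.64 RPKM in the Procr-positive sample, 21.9 RPKM in the Procr-negative one) were 5430435G22Rik, Krt80, Usp43, Pard6b and Dyrk3. The nearness is a Euclidean distance on log2(RPKM + 1) over only 2 libraries, so many genes lie close. Krt80, a keratin gene, was at 1.47 RPKM in Procr-positive against 22.8 RPKM in Procr-negative cells, and Usp43, a ubiquitin protease gene, at 1.58 RPKM in Procr-positive against 23.8 RPKM in Procr-negative cells.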
